A study of Homo sapiens with 12 samples.

Results

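Beta-catenin, the 4 transcription factors of the TCF/LEF family through which it acts, and 4 regulators of the intestinal crypt were followed in colon carcinoma cells that received wild-type or mutant SPRY2. The 9 genes were fixed as a list of Ensembl gene IDs, and all 9 were found among the 24916 gene IDs measured. They are CTNNB1 (ENSG00000168036), TCF7 (ENSG00000081059), TCF7L1 (ENSG00000152284), TCF7L2 (ENSG00000148737), LEF1 (ENSG00000138795), MYC (ENSG00000136997), ASCL2 (ENSG00000183734), SOX9 (ENSG00000125398) and CD44 (ENSG00000026508). Total RNA came from SW480 ADH cells, derived from the human colon carcinoma line SW480 and growing adherently, cultured for 72 h in medium with fetal bovine serum and hybridised to Affymetrix arrays. The 4 groups held 3 arrays each: cells transfected as Mock, with wild-type SPRY2 (WT), with S112A (alanine in place of a serine of Sprouty2) or with Y55F (phenylalanine in place of a tyrosine). The labels do not say whether a group was 1 clone, a pool or a transient transfection, nor what the Mock cells received. The symbols of the 9 IDs were set with the list. The tables used here pair no other ID of the array with a symbol, so SPRY2 itself, markers of cell identity and the other genes of the Wnt pathway were not analysed here.

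In the canonical Wnt pathway, beta-catenin that escapes degradation enters the nucleus, binds TCF/LEF factors and turns their target genes on. In the intestine this output keeps crypt cells proliferating, and in most colorectal carcinomas it is switched on by loss of APC, a scaffold of the complex that marks beta-catenin for degradation; SW480 cells carry a truncated APC. Sprouty2 is a feedback regulator of receptor tyrosine kinase signalling.

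The differences among the 9 genes were small and followed no single direction. The crypt regulator ASCL2 was 1.63-fold lower in WT than in Mock cells and stood near the Mock level in both mutants. CD44, a crypt-base adhesion receptor, was 1.19-fold lower in S112A and 1.19-fold higher in Y55F than in Mock cells. It was 1.42-fold higher in Y55F than in S112A cells. CTNNB1 was lower in Y55F cells than in each other group, by 1.18-fold against Mock. LEF1 was higher in S112A cells alone, and TCF7L1 was 1.40-fold higher in Y55F cells than in Mock. TCF7L2 was higher in both mutants, though of its calls only that between S112A and Mock held in every alternative. Limma's moderated F test over the 4 groups passed for 7 of the 9 genes. It passed for 29.3% of all gene IDs, which include those near the low end of the scale. TCF7 (adjusted p = 0.442) and MYC (adjusted p = 0.0599) did not pass, though MYC passed under several alternatives. Of 54 differences, 9 genes in 6 pairs of groups, 22 passed at an adjusted p under 0.05 and 3 reached 1.5-fold, all 3 of them differences of ASCL2 between WT and another group.

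**Figure D1:**
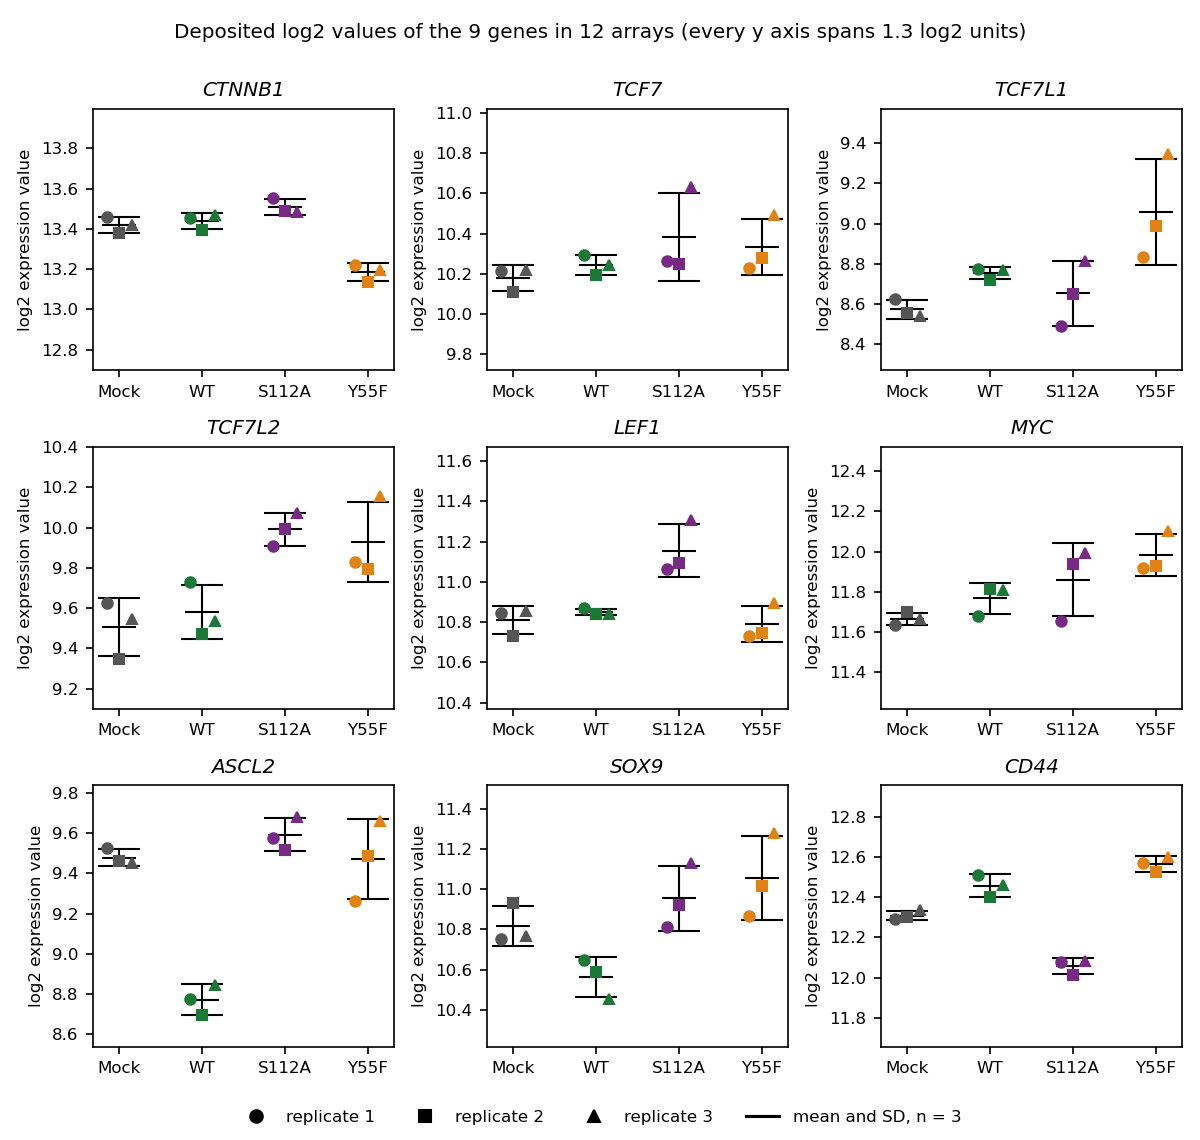
Deposited log2 expression values of the 9 genes, 1 panel a gene, with 3 arrays a group; symbols give the replicate number, and bars the mean and SD (n = 3). ASCL2 stands apart in WT and CTNNB1 in Y55F, all groups lie apart for CD44, and TCF7 overlaps between most groups.

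Values are given on the deposited log2 scale, where a difference of 1 is a 2-fold ratio, and they do not order one gene's RNA against another's. Arrays were alike, with medians of 7.20 to 7.32 and correlations across gene IDs of 0.995 to 0.998 within groups and 0.985 to 0.994 between them. Every value of the 9 genes lay above the array medians, the lowest being 8.49, so none was near the low end of the scale. In such bulk RNA, fewer cells with a transcript and less of it per cell cannot be told apart. A gene-level value also does not separate transcript variants, such as the forms of TCF7, LEF1 and TCF7L2 that lack the beta-catenin binding part, or the splice variants of CD44. The labels state 3 independent experiments in triplicate without saying which arrays share one, so p-values rest on a spread between arrays that may be technical in part. All 3 comparisons with Mock use the same 3 Mock arrays and are not independent of each other.

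Compared with Mock, 1 of the 9 genes passed in WT cells (0 higher, 1 lower), where 9.44% of all gene IDs passed (5.30% higher, 4.14% lower). In S112A cells 3 of the 9 passed (2 higher, 1 lower), where 13.0% of all gene IDs did (5.88% higher, 7.12% lower). In Y55F cells 5 of the 9 passed (4 higher, 1 lower), where 16.1% of all gene IDs did (8.18% higher, 7.95% lower). S112A cells differed from WT at 5 of the 9 (4 higher, 1 lower), where 21.0% of all gene IDs differed (9.19% higher, 11.9% lower). Y55F cells differed from WT at 4 (3 higher, 1 lower), where 19.2% of all gene IDs differed (8.79% higher, 10.4% lower). Y55F cells differed from S112A at 4 (2 each way), where 18.9% of all gene IDs differed (9.92% higher, 9.01% lower). The share of the 9 was close to the background for WT against Mock and above it in the other 5 comparisons, each on a list of 9 chosen genes. This background is not matched to the 9 in level, as it includes gene IDs near the low end of the scale. Among the IDs kept by the filter on low values, a larger share passed in each comparison. The list was also chosen with earlier results of these data known, and whether the 9 exceed a matched background was not tested. The median absolute log2 difference of the 9 genes from Mock was 0.10 in WT, 0.20 in S112A and 0.24 in Y55F cells. Over all gene IDs, which include those near the low end of the scale, it was 0.06, 0.07 and 0.08. From WT it was 0.31 in S112A and 0.25 in Y55F cells, and between the mutants 0.12, where all gene IDs gave 0.09, 0.09 and 0.08.

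**Figure D2:**
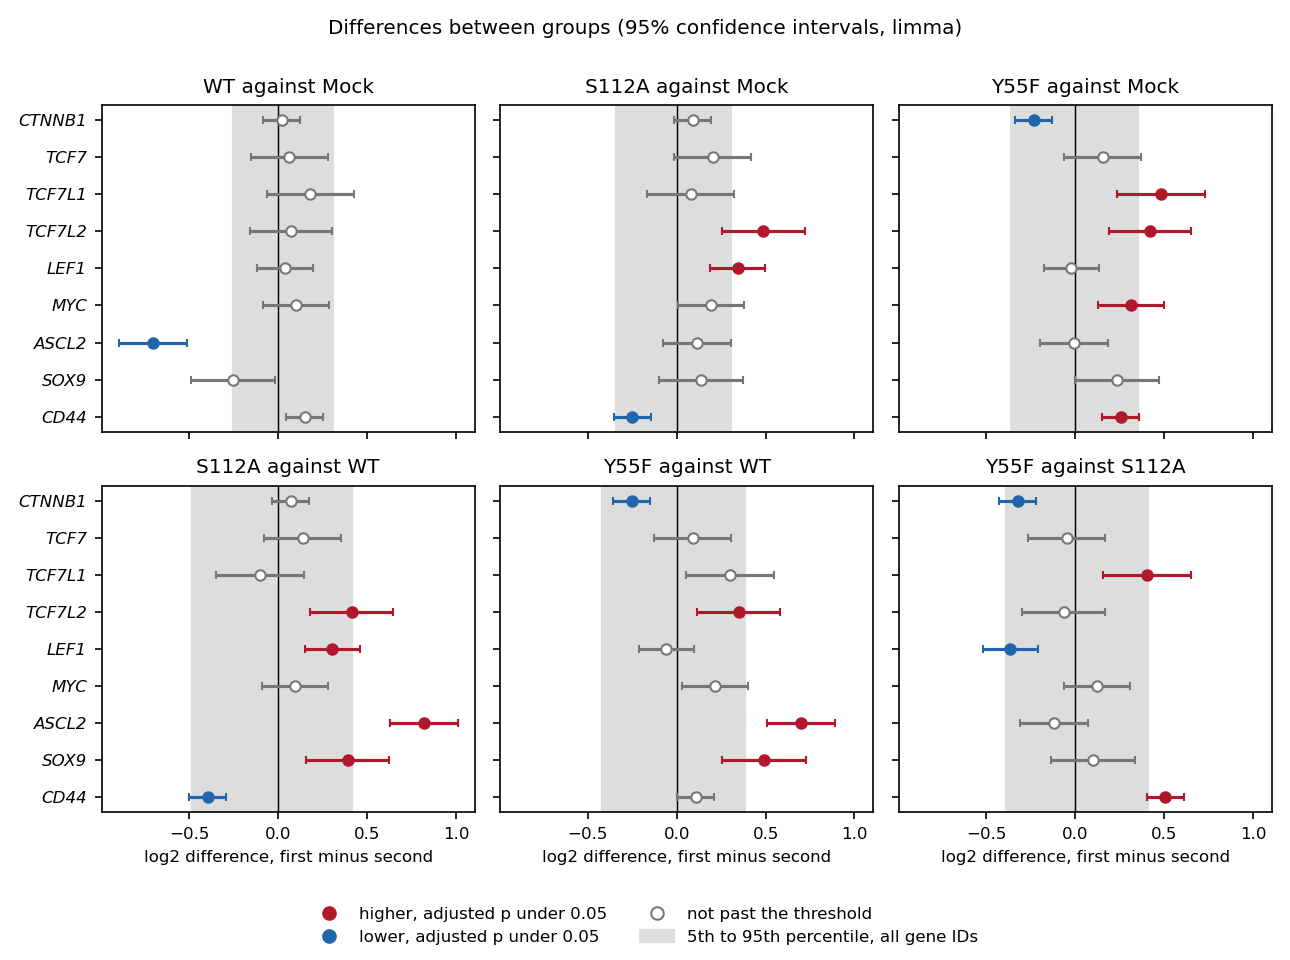
Log2 differences (first group minus second) of the 9 genes in the 6 pairs of groups with 95% confidence intervals from limma; filled points passed at an adjusted p under 0.05, and the grey band spans the 5th to 95th percentile of all 24916 gene IDs. ASCL2 lies outside the band in each comparison with WT, and most other differences lie within or at its edge.

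CTNNB1, which encodes beta-catenin itself, was lower in Y55F cells. Its log2 values were 13.46, 13.38 and 13.42 in Mock, 13.46, 13.39 and 13.47 in WT, 13.56, 13.49 and 13.49 in S112A and 13.22, 13.14 and 13.19 in Y55F cells. The 3 Y55F arrays were the lowest of the 12, with no overlap with any other group. The difference of Y55F from Mock was -0.23 ± 0.05 (SE), a 1.18-fold fall with adjusted p = 0.00464 in limma. It was -0.25 ± 0.05 from WT (adjusted p = 0.00227) and -0.32 ± 0.05 from S112A (adjusted p = 0.000391). With each array centred on its median, the difference of Y55F from Mock was -0.19, with adjusted p = 0.0499 in limma, just under the threshold. Mock, WT and S112A followed in rising order and were not told apart: WT exceeded Mock by 0.02 (95% interval -0.08 to 0.12, adjusted p = 0.945) and S112A exceeded WT by 0.07 (-0.03 to 0.17, adjusted p = 0.392), while S112A exceeded Mock, with no overlap of arrays, by 0.09 (-0.01 to 0.19, adjusted p = 0.319). The spread was low in all groups, with SDs of 0.04 (n = 3 each), so these small ratios passed although 19.0% of all gene IDs differed as much between Y55F and Mock. An mRNA level says nothing of the amount or place of beta-catenin protein, which the pathway controls by degradation.

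The TCF/LEF factors are the DNA-binding partners of beta-catenin. TCF7L1 acts mostly as a repressor, while LEF1 and TCF7 mostly activate and are themselves known Wnt targets; TCF7L2 is the main family member of the intestinal epithelium and is needed for its stem cells in the mouse. In these arrays the 4 factors did not move as a block. TCF7L2 rose in S112A and, less stably, in Y55F cells, LEF1 in S112A cells and TCF7L1 in Y55F cells, while no difference of TCF7 passed.

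The family binds variants of one short element, which was looked for near the genes' own starts because LEF1 and TCF7 are described as targets of the pathway. RefSeq promoter windows (GRCh38.p14) were matched by symbol for 6 of the 9 genes, CTNNB1, TCF7, TCF7L1, TCF7L2, LEF1 and CD44, with 9 windows in all; MYC, ASCL2 and SOX9 were not matched. The letters CTTTG followed by AA, AT, TA or TT were searched on both strands in the 250 bases before each start, and no other motif was searched. A match was found in 2 of the 9 windows, at 1 of 2 starts of TCF7 and 1 of 3 starts of TCF7L2, and in 12% of all 35116 windows. The TCF7 match ends 44 bases before its start and lies on the strand opposite to the gene, within the stretch chr5:134123558-134123584, printed on the plus strand. The TCF7L2 match ends 127 bases before its start, within the stretch chr10:113126490-113126516 on the plus strand. Both stretches are shown 5′ to 3′, each being the match in capitals with 10 bases on either side.
TCF7: gccccactggAACAAAGgaggagagag
TCF7L2: aaatatcaggCTTTGTTcttttgattg
These matches describe the letters of the windows alone.

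TCF7L2 was higher in both mutants than in Mock. Its log2 values were 9.63, 9.35 and 9.54 in Mock, 9.73, 9.47 and 9.53 in WT, 9.91, 9.99 and 10.07 in S112A and 9.83, 9.80 and 10.16 in Y55F cells. All 6 mutant arrays lay above all 6 Mock and WT arrays. The difference of S112A from Mock was 0.49 ± 0.11 (SE), a 1.40-fold rise with adjusted p = 0.00847 in limma, and 4.76% of all gene IDs differed as much. Y55F exceeded Mock by 0.42 ± 0.11 (1.34-fold, adjusted p = 0.0167). This call was lost without Mock replicate 2 (0.34, adjusted p = 0.0709) and without Y55F replicate 3 (0.31, adjusted p = 0.0639). WT and Mock differed by 0.07 (95% interval -0.16 to 0.31, adjusted p = 0.875).

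Set against WT, TCF7L2 was 0.41 ± 0.11 higher in S112A cells (1.33-fold, adjusted p = 0.0140 in limma) and 0.35 ± 0.11 higher in Y55F cells (1.27-fold, adjusted p = 0.0384). The first call was lost without WT replicate 2 (0.36, adjusted p = 0.0627), WT replicate 3 (0.39, adjusted p = 0.0528) or S112A replicate 3 (0.37, adjusted p = 0.0504). The second was the least stable of the 22 calls. It was lost without Mock replicate 3 (adjusted p = 0.0505), WT replicate 2 (0.138), WT replicate 3 (0.114), S112A replicate 2 (0.0553) or Y55F replicate 3 (0.153), with differences of 0.35, 0.29, 0.33, 0.35 and 0.23. Fitted on the WT and Y55F arrays alone its adjusted p was 0.0642, and it was 0.0592 after quantile normalizing again. The mutants themselves were not told apart, Y55F lying 0.07 below S112A (95% interval of the difference -0.30 to 0.17, adjusted p = 0.796).

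LEF1 was higher in S112A cells than in every other group. It stood at 10.85, 10.73 and 10.86 in Mock, 10.87, 10.84 and 10.84 in WT, 11.07, 11.09 and 11.31 in S112A and 10.73, 10.74 and 10.90 in Y55F cells (log2). The 3 S112A arrays were the highest of the 12, and the other groups overlapped. S112A exceeded Mock by 0.34 ± 0.07 (SE), a ratio of 1.27-fold (adjusted p = 0.00622 in limma). It exceeded WT by 0.31 ± 0.07 (1.24-fold, adjusted p = 0.00796) and Y55F by 0.36 ± 0.07 (1.29-fold, adjusted p = 0.00298). Mock, WT and Y55F lay within 0.06 of one another, and their 3 differences had adjusted p of 0.693 to 0.922. The 2 mutants thus differed in LEF1 by a test of the difference itself, while for TCF7L2 the corresponding difference did not pass.

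TCF7L1 was higher in Y55F cells. Its log2 values were 8.63, 8.55 and 8.54 in Mock, 8.78, 8.72 and 8.77 in WT, 8.49, 8.65 and 8.82 in S112A and 8.84, 8.99 and 9.35 in Y55F cells. The Y55F arrays lay above all others and were also the most spread, with an SD of 0.26 against 0.05 in Mock and 0.03 in WT (n = 3). The shared estimate of spread understates this, so the p-values of its Y55F comparisons may be too small. Y55F exceeded Mock by 0.48 ± 0.11 (SE), a 1.40-fold rise with adjusted p = 0.0109 in limma. Over all alternatives this difference was 0.34 to 0.59, and its adjusted p reached 0.0403. Y55F exceeded S112A by 0.40 ± 0.11 (1.32-fold, adjusted p = 0.0248). That call was lost without S112A replicate 1 (0.32, adjusted p = 0.0994), S112A replicate 2 (0.40, adjusted p = 0.0697) or Y55F replicate 3 (0.26, adjusted p = 0.0716), and on the arrays of Y55F and S112A alone (adjusted p = 0.116).

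Against WT the TCF7L1 level of Y55F cells was higher by 0.30 ± 0.11 with adjusted p = 0.0906 in limma. Without Y55F replicate 3 the difference was 0.16 (adjusted p = 0.319). It passed without Y55F replicate 1 (0.41, adjusted p = 0.0203), with each array centred on its median (0.35, adjusted p = 0.0402) and with array weights (0.32, adjusted p = 0.0388). The WT arrays did not overlap with those of Mock, at a difference of 0.18 (95% interval -0.06 to 0.43, adjusted p = 0.507). S112A arrays spanned 0.32 and overlapped with both Mock and WT. The F test of TCF7L1 (adjusted p = 0.0232) was lost without Mock replicate 3 (0.0504) and without Y55F replicate 3 (0.0526).

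TCF7 showed no difference past the threshold in any of the 6 pairs of groups. Its log2 means were 10.18 ± 0.06 in Mock, 10.24 ± 0.05 in WT, 10.33 ± 0.14 in Y55F and 10.38 ± 0.22 in S112A cells (SD, n = 3), and no neighbours in this order were told apart. The S112A arrays stood at 10.27, 10.25 and 10.63 and the Y55F arrays at 10.23, 10.28 and 10.49, so that the mutant means rest in large part on 1 array each. The difference of S112A from Mock was 0.20 (95% interval -0.02 to 0.42, adjusted p = 0.275 in limma). Differences of over 0.42 from Mock in that group lie outside this interval.

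MYC encodes a transcription factor that drives growth and proliferation and is a known target of beta-catenin and TCF7L2 in colorectal cancer cells. It stood at 11.64, 11.70 and 11.66 in Mock, 11.68, 11.81 and 11.81 in WT, 11.66, 11.94 and 11.99 in S112A and 11.92, 11.93 and 12.10 in Y55F cells (log2). Every Y55F array lay above every Mock and WT array, while the S112A arrays spanned 0.34 and overlapped with those of all other groups. Y55F exceeded Mock by 0.32 ± 0.08 (SE), a 1.24-fold rise with adjusted p = 0.0238 in limma, and this was the one pair that passed. It was lost without Mock replicate 1 (0.30, adjusted p = 0.0823), Mock replicate 3 (0.31, adjusted p = 0.0654) or Y55F replicate 3 (0.26, adjusted p = 0.103).

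Other MYC differences lay near the threshold. S112A and Mock differed by 0.20 (95% interval 0.01 to 0.38, adjusted p = 0.198 in limma), which passed with array weights (0.27, adjusted p = 0.000764) and without S112A replicate 1 (0.30, adjusted p = 0.0164). Without S112A replicate 3 it was 0.13 and did not pass. The F test of MYC (adjusted p = 0.0599) passed on all 12 arrays with the replicate number as a block, fixed (0.0166) or random (0.0304), with centring (0.0150), array weights (0.00129), the filter on low values (0.0476) and the trended robust prior (0.0311). It also passed without S112A replicate 1 (0.00630) and without S112A replicate 3 (0.0480). Y55F exceeded WT by 0.21 (adjusted p = 0.110). This passed with the replicate block (adjusted p = 0.0406), with centring (0.27, adjusted p = 0.0318) and without S112A replicate 1 (adjusted p = 0.0322), which enters it through the shared spread alone. WT and Mock were not told apart, at 0.10 (-0.08 to 0.29, adjusted p = 0.697).

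ASCL2 showed the widest differences of the 9 genes. It encodes a basic helix-loop-helix factor that is a Wnt target and maintains crypt stem cells in the mouse intestine. Its log2 values were 9.53, 9.46 and 9.45 in Mock, 8.77, 8.70 and 8.85 in WT, 9.58, 9.52 and 9.68 in S112A and 9.26, 9.49 and 9.66 in Y55F cells. The 3 WT arrays lay below all 9 others, with a gap that no other gene of the list showed, while the remaining groups overlapped. WT was lower than Mock by a log2 difference of -0.71 ± 0.09 (SE), a 1.63-fold fall with adjusted p = 0.000193 in limma. Of all gene IDs, 2.07% differed as much between these groups. S112A exceeded WT by 0.82 ± 0.09 (1.76-fold, adjusted p = 2.45e-05) and Y55F exceeded WT by 0.70 ± 0.09 (1.62-fold, adjusted p = 0.000133).

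The mutants lacked this fall of ASCL2. Y55F differed from Mock by -0.01 (95% interval -0.20 to 0.18, adjusted p = 0.977 in limma) and S112A by 0.11 (-0.08 to 0.30, adjusted p = 0.560). Both intervals exclude a fall of the size seen in WT cells. The SD of ASCL2 was 0.20 in Y55F and 0.04 in Mock cells (n = 3). The shared estimate of spread understates the former, so the Y55F interval may be too narrow. Y55F and S112A were not told apart (-0.12, adjusted p = 0.458). The 3 calls of ASCL2 held in each of the 12 fits without 1 array and in each other alternative tried.

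SOX9, a transcription factor of the crypt base and a Wnt target needed for Paneth cells in the mouse, was lowest in WT cells. It stood at 10.75, 10.93 and 10.77 in Mock, 10.65, 10.59 and 10.46 in WT, 10.81, 10.92 and 11.13 in S112A and 10.87, 11.02 and 11.28 in Y55F cells (log2). The WT arrays lay below all others, as for ASCL2, but at a shorter distance. WT and Mock differed by -0.25 ± 0.11 (SE), which did not pass (adjusted p = 0.224 in limma). Y55F exceeded WT by 0.49 ± 0.11 (1.40-fold, adjusted p = 0.00647). S112A exceeded WT by 0.39 ± 0.11 (1.31-fold, adjusted p = 0.0214), a call lost without WT replicate 2 (0.40, adjusted p = 0.0505), WT replicate 3 (0.34, adjusted p = 0.0900) or S112A replicate 3 (0.30, adjusted p = 0.0834).

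Neither mutant differed from Mock in SOX9 past the threshold. For S112A the difference was 0.14 (95% interval -0.10 to 0.37, adjusted p = 0.569 in limma). For Y55F it was 0.24, with an unadjusted 95% interval of 0.00022 to 0.47 and adjusted p = 0.196. It passed with array weights (0.29, adjusted p = 0.0206), and without Y55F replicate 3 it was 0.12 (adjusted p = 0.594). In the order WT, Mock, S112A and Y55F no neighbours were told apart. The F test (adjusted p = 0.0174) was lost without WT replicate 2 (0.0502) and without WT replicate 3 (0.0771).

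CD44 encodes a receptor for hyaluronan at the cell surface, marks cells of the crypt base and is a known Wnt target. Its log2 values were 12.29, 12.30 and 12.33 in Mock, 12.51, 12.40 and 12.46 in WT, 12.08, 12.01 and 12.08 in S112A and 12.57, 12.52 and 12.60 in Y55F cells. No 2 of the 4 groups overlapped. In rising order they were S112A, Mock, WT and Y55F, and the first step alone passed between neighbours. S112A was lower than Mock by -0.25 ± 0.05 (SE; 1.19-fold, adjusted p = 0.00364 in limma), while Y55F exceeded Mock by 0.26 ± 0.05 (1.19-fold, adjusted p = 0.00264). WT exceeded Mock by 0.15 ± 0.05 with adjusted p = 0.0818, and Y55F exceeded WT by 0.11 ± 0.05 with adjusted p = 0.158.

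The 2 mutants moved CD44 in opposite directions from Mock. The difference between them, 0.50 ± 0.05 (1.42-fold), had the lowest adjusted p of the 54, 1.34e-05 in limma. S112A lay 0.40 below WT (1.32-fold, adjusted p = 5.93e-05). Within-group SDs were 0.02 to 0.06 (n = 3), among the lowest of the 9 genes, and all 4 calls of CD44 held in each alternative tried.

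Over the 54 differences, groups with no overlap between their arrays were more frequent than calls, 32 against 22, though not between the mutants. For WT and Mock 4 of the 9 genes did not overlap, where 24.5% of all gene IDs did not. Against Mock the counts were 5 in S112A (26.3% of all gene IDs) and 6 in Y55F cells (29.1%). Against WT they were 6 in S112A (33.6%) and 7 in Y55F cells (31.5%), and between the mutants 4 (29.4%).

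Within the mutant groups, most of the 9 genes also moved together between replicates. In S112A cells replicate 3 held the highest value of 8 of the 9 genes, CTNNB1 being the exception, where it held the highest value of 40.5% of all gene IDs. In Y55F cells replicate 3 was again highest for 8 of the 9, again all but CTNNB1, against 28.8% of all gene IDs. The median deviation of the 9 genes from the group mean was 0.13 in the first and 0.16 in the second array, against 0.01 and -0.01 over all gene IDs. Replicate 1 of WT held the highest value of 6 of the 9, against 20.6% of all gene IDs. In replicate 3 the deviation of TCF7 in S112A cells, 0.25, exceeded its difference from Mock, 0.20. LEF1 deviated by 0.15 in S112A cells, where it differed from Mock by 0.34. In Y55F cells the deviations were 0.29 for TCF7L1, 0.23 for TCF7L2, 0.12 for MYC and 0.22 for SOX9. Their differences from Mock were 0.48, 0.42, 0.32 and 0.24. For ASCL2 the deviations were 0.09 in S112A and 0.19 in Y55F cells, against differences of 0.82 and 0.70 from WT. What set these arrays apart was not tested.

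**Figure D3:**
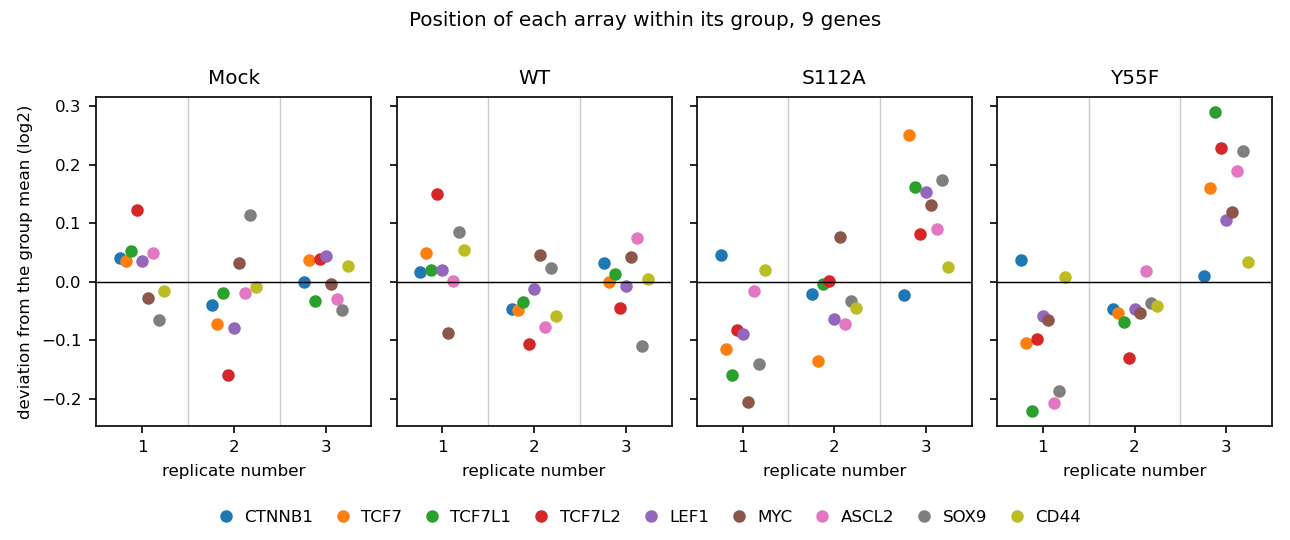
Deviation of each array from its group mean (log2) for the 9 genes, with the replicate number on the x axis and 1 panel a group. In S112A and Y55F cells, 8 of the 9 genes are highest in replicate 3; Mock arrays lie closer to 0.

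With the third replicates of S112A and Y55F left out together, a choice made after seeing the data, the gene count for Y55F and Mock went from 5 to 3. TCF7L2 (0.31, adjusted p = 0.0621 in limma) and MYC (0.26, adjusted p = 0.0686) were lost there, and TCF7L2 was lost between Y55F and WT (0.23, adjusted p = 0.147). The remaining 19 of the 22 calls held. Over all fits without 1 array and all other alternatives, 16 of the 22 calls held throughout. These were the 4 of CD44 and the 3 each of CTNNB1, LEF1 and ASCL2, with TCF7L2 between S112A and Mock, TCF7L1 between Y55F and Mock, and SOX9 between Y55F and WT.

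**Figure D4:**
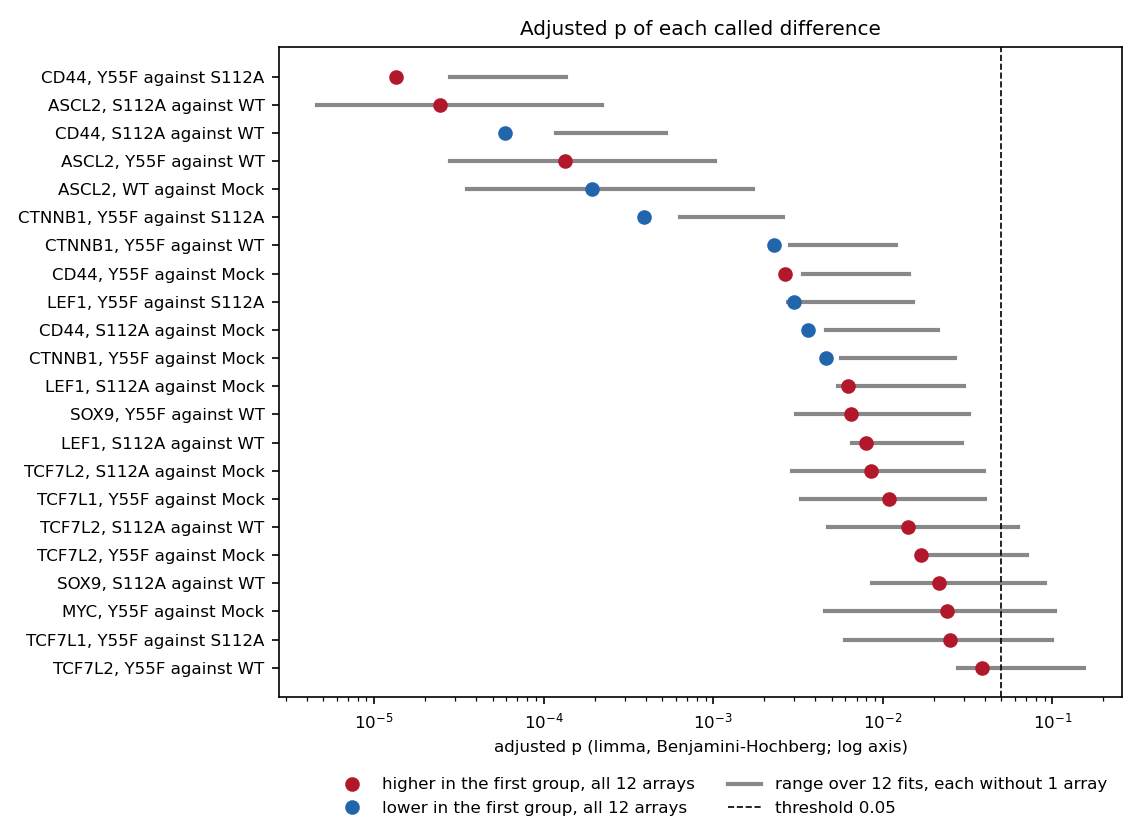
Adjusted p (limma, log axis) of the 22 called differences with all 12 arrays (points, coloured by direction) and its range over the 12 fits that each leave out 1 array (bars). The bars of 6 differences, 3 of them of TCF7L2, cross the dashed threshold of 0.05.

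Likeness of pattern was described by Pearson's r of log2 values over the 12 arrays, which share 4 group levels and their array effects. Of the 7 genes that passed the F test, each had 3 gene IDs outside the list with r between 0.95 and 0.99, and these IDs are unnamed here. The closest gene within the list stood in that ranking at place 366 (TCF7L2, whose closest was TCF7 at r = 0.78) to place 2271 (CTNNB1, whose closest was LEF1 at r = 0.58). It was picked from the few other genes of the list, and the top 3 from all gene IDs. A lower place was thus bound to come out and does not show that the genes of the list are unlike each other. ASCL2 and SOX9, both lowest in WT cells, were closest to each other at r = 0.80. CD44 and LEF1 ran most nearly opposite, at r = -0.75.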

How the data were processed

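RNA of 12 samples was labelled with the Ambion WT Expression Kit and hybridised to Affymetrix arrays, per the labels. The authors deposited 1 log2 value for each Ensembl gene ID in each array. The submitters' processing notes name RMA and affy; versions, array model, genome build and annotation are not given in the sources used here. RMA usually corrects background, normalizes quantiles and summarises probes, so values are relative within an array. That the scale is log2 was inferred from its range, 3.91 to 14.12. No raw intensities were used.

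All 24916 gene IDs were fitted with limma 3.58.1 in R 4.3.3, with 1 mean per group, no filter and 8 residual degrees of freedom. The 6 pairs of groups were tested with eBayes, two-sided, and the 4 groups with the moderated F test, each with Benjamini-Hochberg adjustment over all gene IDs and a threshold of 0.05. A fold is 2 to the power of a log2 difference. The number of arrays limits the precision. No 2 arrays held identical values.

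The rule for named genes took all 9 listed IDs. The members and lists were chosen with earlier results of these data known. Lists of other Wnt pathway genes, crypt stem cell genes and cell type markers were set by symbol and not run, since the tables used pair no symbols with Ensembl IDs. Alternatives were a filter on low values, fits of 2 groups, centring, quantile normalizing again, array weights, a trended robust prior, the replicate number as a block and leaving out arrays.

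Deviations from the group mean of arrays with the same number correlated at 0.14, 0.46 and 0.36 for WT and Mock and at 0.61, 0.12 and 0.40 for Y55F and S112A. As all exceed 0.1, a cut set by choice, the numbers were treated as pairing these samples. Arrays with unlike numbers were not compared, so this pairing is uncertain. The main tests stayed unpaired, and the replicate number entered as a block in alternatives alone. The pairing comes from the data, not the labels. Each of the other 4 comparisons had a pair under 0.1, the lowest being -0.29 for replicate 3 of S112A and Mock.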

Additional observations from a re-analysis of the deposited data

How the results depend on the processing

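Of 1134 values of the 54 differences under 21 alternatives, 1099 stayed on the same side of the threshold, 25 lost a call, 10 gained one, and no called difference changed sign. With 1 array left out, the number of genes past the threshold against Mock was 1 in every fit for WT, 3 to 4 for S112A and 3 to 5 for Y55F. Against WT it was 3 to 5 in S112A and 3 to 5 in Y55F cells, between the mutants 3 to 4, and 6 to 8 genes passed the F test. The lowest counts came without Y55F replicate 3 for Y55F and Mock, and without WT replicate 2, WT replicate 3 or S112A replicate 3 for S112A and WT. Array weights gave 2 genes for WT and Mock, adding CD44 (0.15, adjusted p = 0.0164 in limma), and the cause was not tested. They also gave 4 for S112A and Mock, adding MYC (0.27, adjusted p = 0.000764), 6 for Y55F and Mock, adding SOX9 (0.29, adjusted p = 0.0206), and 5 for Y55F and WT, adding TCF7L1 (0.32, adjusted p = 0.0388). They raised the count of all gene IDs against Mock from 2353 to 4230 in WT and from 3238 to 9119 in S112A cells, that of S112A against WT from 5243 to 8265 and that of the F test from 7292 to 11786, with weights of 6.06 for S112A replicate 2 and 5.31 for Mock replicate 1 against 0.467 to 1.35 for the others. Without replicate 3 of both mutants 3 genes passed for Y55F against Mock, with fewer arrays in the fit. With the replicate block as a fixed term the counts of genes in the order above were 1, 3, 5, 5, 5, 4 and 8, and MYC passed between Y55F and WT (0.21, adjusted p = 0.0406) and in the F test (adjusted p = 0.0166). The block changed no call of the comparisons treated as paired, WT with Mock and Y55F with S112A. It fits replicate effects shared by all 4 groups, so it is not a paired test of these 2 comparisons alone. A random block (correlation 0.118) added MYC in the F test (adjusted p = 0.0304). The F test of MYC also passed with the filter on low values (0.0476), with centring (0.0150), with array weights (0.00129) and with the trended robust prior (0.0311). With centring MYC passed between Y55F and WT (adjusted p = 0.0318). The shifts that centring removed ran from -0.0515 (Y55F and WT) to 0.00599 (WT and Mock) on the log2 scale. Signal over background was not analysed.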
